A study of Mus musculus with 18 samples.

Results

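Transcripts of 9 genes of the G1 phase of the cell cycle were followed in cultured mouse cumulus cells. They were the D cyclin genes Ccnd1, Ccnd2 and Ccnd3, the E cyclin genes Ccne1 and Ccne2, and 4 genes of inhibitors of cyclin-dependent kinases (CDKs), Cdkn1a, Cdkn1b, Cdkn2b and Cdkn2c. Every probe set annotated with exactly 1 gene symbol that was one of these 9 was taken, which gave 22 probe sets of the 34945 with 1 symbol, and 9 genes of 18193. Each gene was represented by its probe set with the highest mean over all arrays, and the others are described beside it. Of the 9 genes, 8 lay above the median of an array on at least 3 arrays and entered the tests, as did 12246 genes in all (67.3%). Cdkn2b was above the median on 0 of 18 arrays and was not tested. Ccne2 was above it on 14 arrays, which were the 12 arrays of cells cultured with oocytes and 2 of the 6 without, so its place among the tested genes rests on the groups in which it is high.

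Cumulus cells are the granulosa cells that enclose the oocyte in the antral follicle, and the study asked how oocytes and estrogen act together on their transcripts. Female mouse cumulus-oocyte complexes were cultured in 6 groups, with 1 Affymetrix expression array for each of 3 samples per group. The groups were oocyte-free complexes cultured together with oocytes (cocultures), oocyte-free complexes alone, and intact complexes, each with estrogen and without it. Strain, age, hormone priming, culture time and estrogen dose were not given in the sources used here. Whether the 3 samples within a group were separate animals or cultures is not stated, so each p-value covers sample-to-sample spread that could be technical alone.

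The D cyclins activate CDK4 and CDK6, and the E cyclins activate CDK2. Together these kinases phosphorylate the retinoblastoma family of pocket proteins, which frees E2F transcription factors to switch on the genes of S phase. The CIP/KIP inhibitors p21 (Cdkn1a) and p27 (Cdkn1b) bind cyclin-CDK complexes, while the INK4 inhibitors p15 (Cdkn2b) and p18 (Cdkn2c) bind CDK4 and CDK6. Cyclin D2 is the D cyclin that mouse granulosa cells depend on to proliferate, and in rat granulosa cells it is induced by follicle-stimulating hormone and estradiol.

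All levels below are log2 values after RMA, a method that corrects the background, gives all arrays the same distribution and summarises the probes of a set. One unit is a doubling, low values are compressed towards the background, and levels of different probe sets are not comparable. In these bulk samples, fewer cells of a type and less RNA per cell cannot be told apart. Array medians lay between 5.51 and 5.71. The values of replicate 3 of the oocyte-free group without estrogen were the most compressed, with an interquartile range of 2.54, where the remaining arrays had 2.70 to 3.06. The array names fall into 3 series of 13, 2 and 3 arrays, and none of the 3 oocyte-free arrays without estrogen was in series 1, which held all intact complexes. For 1 array, oocyte-free replicate 1 with estrogen, the title gave estrogen and the source name and treatment gave none. The title was followed.

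The labelled cell type was checked with marker genes. All 10 measured cumulus and granulosa markers lay above the array median on at least 17 of 18 arrays, with Inha between 11.97 and 13.61. The mean level of that list lay between 10.91 and 11.12 in cocultures with estrogen, 9.87 and 10.24 in oocyte-free complexes with estrogen, and 10.91 and 11.12 in intact complexes with estrogen. Without estrogen it lay between 10.34 and 10.60 in cocultures, 9.16 and 9.34 in oocyte-free complexes, and 10.31 and 10.47 in intact complexes. By the limma test used throughout (adjusted p under 0.05 over all tested genes), 5 of the 10 markers fell and 0 rose on oocyte removal with estrogen, where 17.3% of all tested genes fell and 12.9% rose. Without estrogen 6 fell and 2 rose, where 20.7% of all tested genes fell and 18% rose. Whether this has a part in the differences of the cyclin and inhibitor genes was not tested. The mean of 9 theca and stroma markers lay between 5.86 and 5.94 in cocultures, 6.49 and 6.61 in oocyte-free and 5.74 and 5.82 in intact complexes with estrogen, and between 6.43 and 6.84 over all arrays without it. Of 5 tested, 3 rose on removal with estrogen, while 1 rose and 3 fell without it, and the part of these cells was not tested. The list was mixed: Dcn, a proteoglycan gene of stroma, was above the median on 6 arrays and averaged 7.94 in oocyte-free complexes with estrogen and 9.08 without, against 4.48 to 4.75 in the groups with oocytes. Dcn rose on removal by 3.39 with estrogen and 4.48 without. Acta2, smooth muscle actin, and Ptch1, the hedgehog receptor, were above the median on 18 arrays and were called in both removal comparisons, higher with estrogen (2.98 for Acta2 and 1.02 for Ptch1) and lower without (-1.91 for Acta2 and -1.22 for Ptch1). The collagen genes Col1a1 and Col1a2 and Lum were above the median on 0 arrays. Of 9 measured endothelial and blood cell markers, Kdr and Csf1r were above it on 18 arrays and were not called on removal or on adding oocytes, while the defining genes Pecam1, Cdh5 and Ptprc were above it on 0. Of 11 measured oocyte markers, 4 were above the median on 3 or more arrays, and 0 were called on removal or on adding oocytes. These 4 were Gdf9 on 18 arrays (6.61 to 7.19), Dppa3 on 16, Figla on 15 and Ooep on 13 (up to 7.46). The zona pellucida genes Zp1 and Zp2 stayed at or below 5.05 on all arrays, and Zp3 reached 5.86. The part of oocyte RNA was not tested. Genes of the Y chromosome, which female cells lack, read between 2.23 and 5.78 over 13 probe sets, with a median of 3.57. The upper end of this range was set by Sry, at 5.41 to 5.78. As levels of different probe sets are not comparable, the range is used only as a rough guide to background.

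RefSeq start sites on the mouse assembly GRCm38.p6 were at hand for 6 of the 9 genes, with 9 windows of the 250 bases upstream of a transcription start. The 3 windows below belong to Ccne1, Cdkn2c and Cdkn1a, which were called when oocytes were removed or added, and for Cdkn2c and Cdkn1a the start whose window holds GC boxes is printed. Capitals mark the GC box bound by Sp1-type factors, GGGCGG on the printed strand or CCGCCC where it lies on the other.
Ccne1 (chr7:38107491-38107740, minus strand): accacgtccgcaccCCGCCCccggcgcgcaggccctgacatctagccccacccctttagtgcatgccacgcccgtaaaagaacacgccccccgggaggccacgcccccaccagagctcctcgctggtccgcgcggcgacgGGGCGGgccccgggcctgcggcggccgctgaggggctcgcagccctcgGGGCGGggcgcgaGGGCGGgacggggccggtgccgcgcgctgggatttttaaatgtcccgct
Cdkn2c, first start (chr4:109666757-109667006, minus strand): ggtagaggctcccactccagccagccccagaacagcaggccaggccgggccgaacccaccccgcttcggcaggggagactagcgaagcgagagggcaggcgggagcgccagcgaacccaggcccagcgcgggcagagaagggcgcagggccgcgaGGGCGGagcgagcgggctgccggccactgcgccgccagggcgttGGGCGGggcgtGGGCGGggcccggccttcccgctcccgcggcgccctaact
Cdkn1a, second start (chr17:29093519-29093768, plus strand): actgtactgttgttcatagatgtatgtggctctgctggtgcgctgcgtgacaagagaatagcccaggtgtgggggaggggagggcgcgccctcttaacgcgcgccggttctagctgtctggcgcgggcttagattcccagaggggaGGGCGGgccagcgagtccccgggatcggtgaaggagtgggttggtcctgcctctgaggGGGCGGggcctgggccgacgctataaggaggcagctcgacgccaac
The Ccne1 window held 4 GC boxes, this Cdkn2c window 3 and this Cdkn1a window 2. The other starts of the same genes, the first of Cdkn1a and the second of Cdkn2c, held 0, with a GC content of 54.0% for Cdkn1a and 42.8% for Cdkn2c. GC boxes also lay upstream of genes not called by their representative probe sets. Ccnd3 held 2 at its first start and 1 at its second, and Cdkn1b held 1. The window of Cdkn2b, which was not tested, held 0. Of all 32851 RefSeq windows of this length, 32.7% held at least 1 GC box. In the printed windows GC content was 76.0% for Ccne1, 77.2% for Cdkn2c and 64.8% for Cdkn1a, against a median of 52.4% over all windows. An E2F word (TTT, then 2 bases that are each C or G, then CGC, on either strand) was in 1.86% of all windows and in 0 of the 9 windows of these genes. The word CCAAT, in 33.9% of all windows, occurred at 1 start of Ccnd3 and in the Cdkn1b window, and the E-box CACGTG and TATAAA in 0 of the 9. These matches describe letters in a window and say nothing of what binds there.

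Oocyte removal was read as oocyte-free minus intact complexes, and adding oocytes as coculture minus oocyte-free complexes. The oocyte-free arrays enter both comparisons, so their values are given side by side and neither supports the other. A gene was called where limma's Benjamini-Hochberg adjusted p over the 12246 genes was under 0.05. On removal with estrogen, 5 of the 8 tested genes were called (30.2% of all tested genes were), 1 higher (12.9%) and 4 lower (17.3%). On removal without estrogen, 4 were called (38.7%), 1 higher (18%) and 3 lower (20.7%). On adding oocytes with estrogen, 5 were called (24.6%), 4 higher (14.2%) and 1 lower (10.4%). On adding oocytes without estrogen, 5 were called (33.2%), 4 higher (19.8%) and 1 lower (13.4%). The called genes were Ccnd2, Ccne1, Ccne2 and Cdkn2c, lower without the oocyte and higher with it, and Cdkn1a, the other way, except that Cdkn2c was not called on removal without estrogen. The median difference of the 8 genes on removal was -0.55 with estrogen and -0.31 without, against -0.047 and 0.013 over all tested genes. With so many genes called, the counts of these 8 are read against that background and are described gene by gene.

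**Figure D1:**
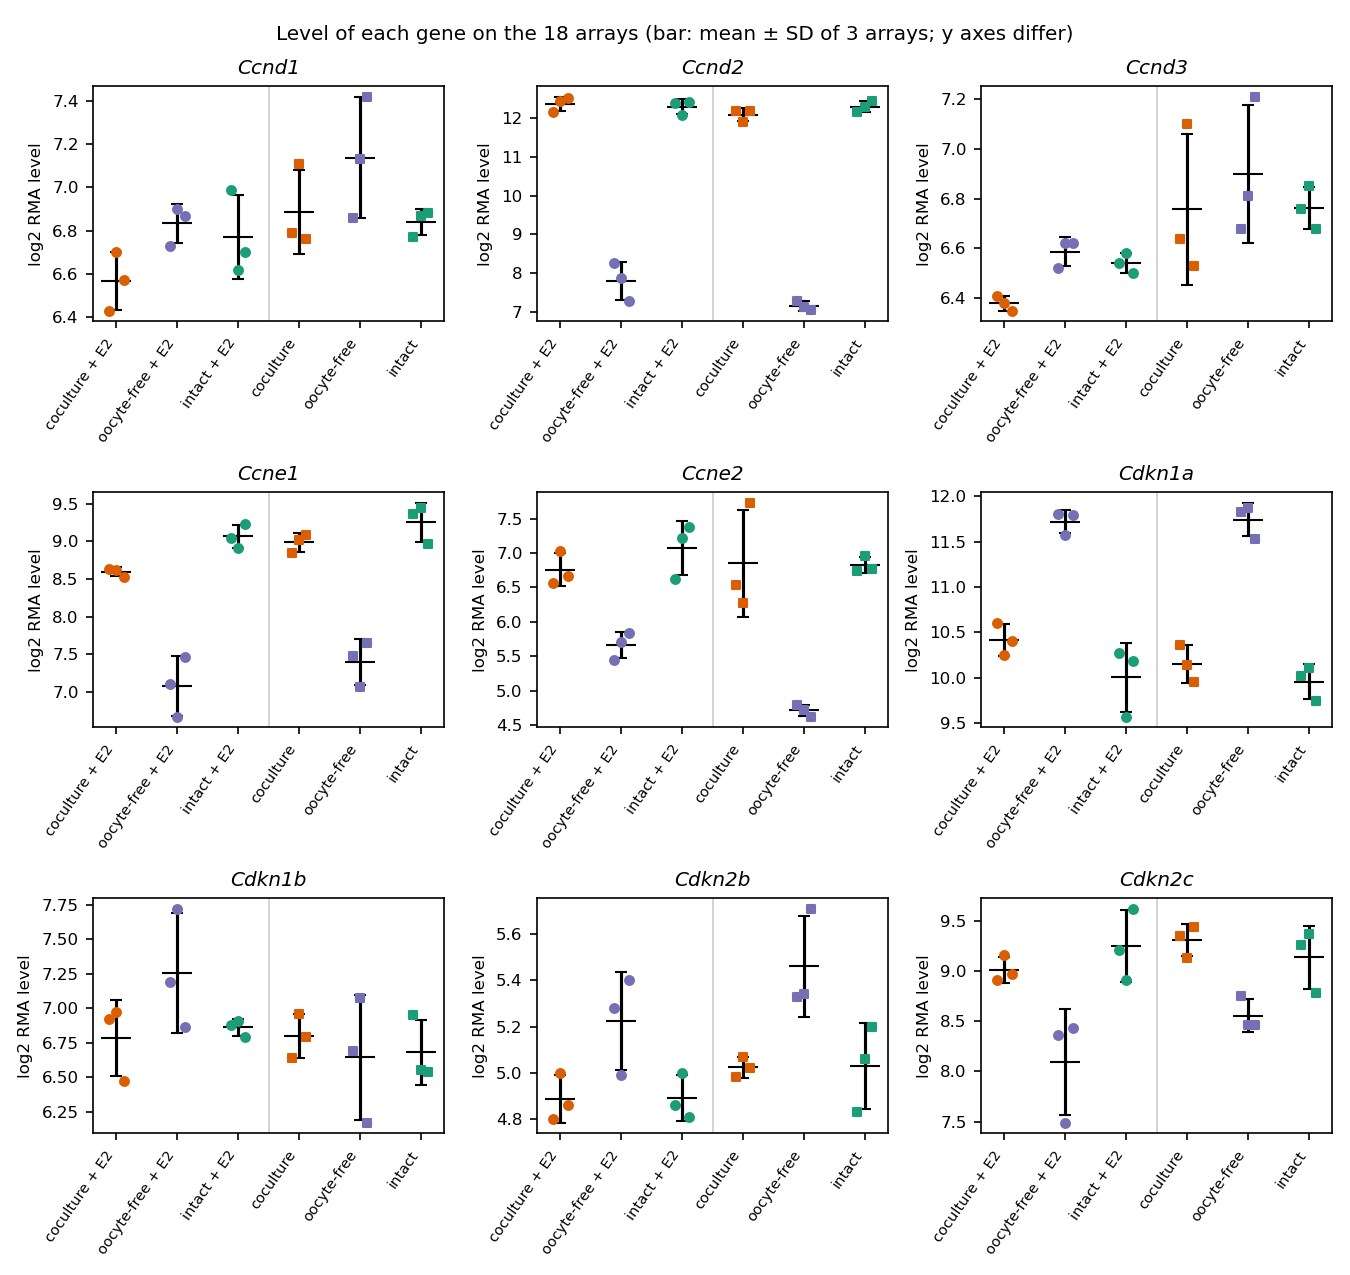
Log2 RMA level (y, scale differs by panel) of the representative probe set of each of the 9 genes on the 18 arrays, by group (x). Points are single arrays and bars are mean ± SD of 3 arrays; Ccnd2 reads 7.05 to 8.26 on the 6 oocyte-free arrays and 11.90 to 12.51 on the other 12.

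Ccnd2, which encodes cyclin D2, showed the widest separation among these genes. With estrogen it read 12.17, 12.44 and 12.51 in cocultures, 8.26, 7.87 and 7.28 in oocyte-free complexes, and 12.40, 12.09 and 12.41 in intact complexes. Without estrogen it read 12.19, 11.90 and 12.19 in cocultures, 7.29, 7.13 and 7.05 in oocyte-free complexes, and 12.15, 12.30 and 12.43 in intact complexes. Every oocyte-free array lay more than 3 units below every array with oocytes, and the 4 groups with oocytes overlapped. Removal lowered Ccnd2 by a log2 difference of -4.50 ± 0.20 with estrogen (SE, n = 3 per group, limma adjusted p = 6.78e-11), which is 22.6-fold. Without estrogen the difference was -5.14 ± 0.20 (adjusted p = 9.09e-12), or 35.2-fold. Adding oocytes raised it 23.8-fold with estrogen and 30.6-fold without (adjusted p = 6.47e-11 and 1.32e-11). Among all probe sets of an array, Ccnd2 ranged from percentile 74.1 to percentile 99.3.

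All 7 Ccnd2 probe sets were called in all 4 comparisons with the oocyte when each probe set was tested on its own. Of all probe sets, 26.6% were called on removal with estrogen, 35.1% on removal without, 21.4% on adding oocytes with estrogen and 29.9% without. Their removal differences lay between -2.63 and -4.98 with estrogen and between -2.63 and -5.18 without. The smallest belonged to 1416124_at, which read 4.48 on average in oocyte-free and 7.11 in intact complexes with estrogen, so its oocyte-free level lay inside the range of the Y-linked genes. For 1416123_at the oocyte-free arrays without estrogen (4.10, 3.89 and 3.31) were inside that range too, so that the folds of these 2 probe sets may be understated. Over the 18 arrays the other 6 correlated with the representative one at r = 0.97 to 0.998, values that mostly reflect the gap between arrays with and without oocytes.

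Ccnd1, the gene of cyclin D1, was not called in any of the comparisons. With estrogen it read 6.43, 6.70 and 6.57 in cocultures, 6.73, 6.90 and 6.87 in oocyte-free and 6.99, 6.62 and 6.70 in intact complexes. Without estrogen it read 6.79, 7.11 and 6.76 in cocultures, 6.86, 7.13 and 7.42 in oocyte-free and 6.77, 6.87 and 6.88 in intact complexes. Groups next to each other in the order of their means overlapped. Cocultures with estrogen lay wholly below oocyte-free complexes with estrogen and below cocultures without it, and neither difference was called. The removal difference was 0.063 with estrogen (95% interval -0.27 to 0.40) and 0.30 without (-0.035 to 0.63, adjusted p = 0.151). Without oocyte-free replicate 1 without estrogen, the second of these became 0.435 and was called (adjusted p = 0.0468).

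The Ccnd1 probe sets did not run together. A second, 1417420_at, read 5.94, 6.16 and 5.68 in oocyte-free and 7.39, 6.98 and 6.37 in intact complexes without estrogen, and fell there by -0.99 ± 0.35 (adjusted p = 0.0384 over 21249 probe sets). With estrogen its difference was -0.46 ± 0.35 and was not called. It correlated with the representative probe set at r = -0.346 over 18 arrays. The other, 1417419_at, was above the median on 0 arrays and was not tested. No direction for Ccnd1 can therefore be given from these probe sets.

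Ccnd3, the gene of cyclin D3, was not called by its representative probe set 1444323_at. This read 6.52, 6.62 and 6.62 in oocyte-free and 6.54, 6.58 and 6.50 in intact complexes with estrogen, with a difference of 0.047 (95% interval -0.28 to 0.38). Without estrogen it read 6.68, 6.81 and 7.21 in oocyte-free and 6.76, 6.85 and 6.68 in intact complexes, a difference of 0.14 (-0.19 to 0.47). The groups overlapped both times. Probe set 1438805_at gave another result, with 7.24, 7.85 and 6.90 in oocyte-free against 6.19, 6.47 and 5.90 in intact complexes with estrogen. It was called higher on removal with estrogen (1.14 ± 0.25, adjusted p = 0.00217) and without (1.11 ± 0.25, adjusted p = 0.00205). It was called lower on adding oocytes, with -0.97 ± 0.25 with estrogen and -1.03 ± 0.25 without. The third, 1415907_at, was not called, with 0.26 with estrogen and 0.40 without on removal. Taken as the mean of its 3 probe sets, Ccnd3 was called in all 4 comparisons. It was then higher on removal with estrogen (0.48, adjusted p = 0.00122) and without (0.55, adjusted p = 0.000325), and lower on adding oocytes with estrogen (-0.47, adjusted p = 0.00184) and without (-0.48, adjusted p = 0.00117).

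**Figure D2:**
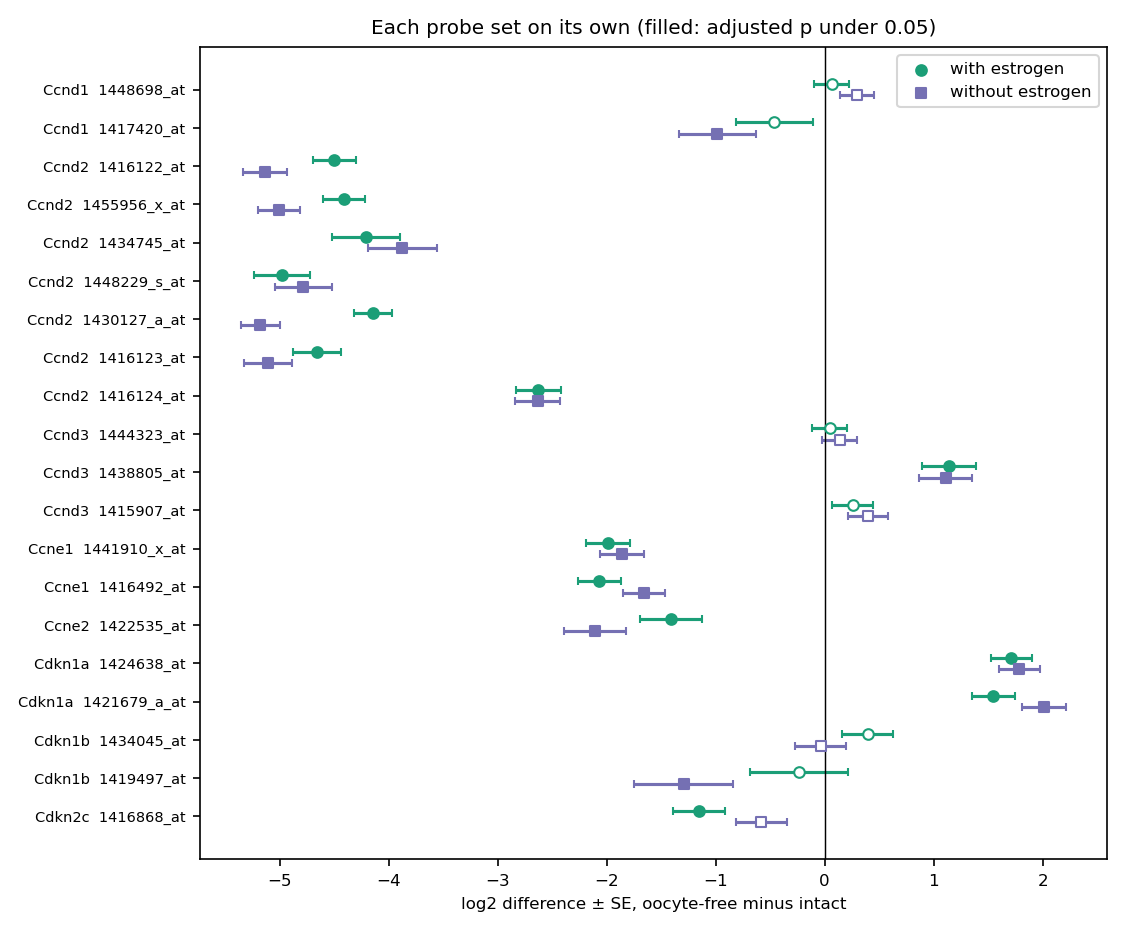
Log2 difference (x, ± SE) between oocyte-free and intact complexes for every tested probe set of the 9 genes, with and without estrogen. Filled symbols have an adjusted p under 0.05 over 21249 probe sets; the 7 Ccnd2 sets lie at -2.63 or further left, while sets of Ccnd1, Ccnd3 and Cdkn1b differ in sign or in being called.

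Ccne1, the gene of cyclin E1, was lower in every oocyte-free array than in every array with oocytes. With estrogen, Ccne1 read 8.64, 8.62 and 8.53 in cocultures, 7.10, 6.67 and 7.47 in oocyte-free and 9.05, 8.92 and 9.23 in intact complexes. Without estrogen, Ccne1 read 8.85, 9.02 and 9.09 in cocultures, 7.48, 7.06 and 7.65 in oocyte-free and 9.37, 9.44 and 8.96 in intact complexes. Removal lowered it 3.96-fold with estrogen (-1.99 ± 0.20, adjusted p = 5.54e-07) and 3.63-fold without (-1.86 ± 0.20, adjusted p = 9.62e-07). Adding oocytes raised it 2.86-fold with estrogen (1.52 ± 0.20, adjusted p = 1.71e-05) and 3.01-fold without (1.59 ± 0.20, adjusted p = 7.71e-06). The second Ccne1 probe set, 1416492_at, was called in the same 4 comparisons, with removal differences of -2.07 with estrogen and -1.66 without, and added-oocyte differences of 1.55 with estrogen and 1.33 without.

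Ccne2, the gene of cyclin E2, has 1 probe set here. In culture with estrogen, Ccne2 read 6.57, 7.03 and 6.67 in cocultures, 5.45, 5.70 and 5.83 in oocyte-free and 6.62, 7.22 and 7.37 in intact complexes. In culture without estrogen, Ccne2 read 6.54, 6.27 and 7.73 in cocultures, 4.79, 4.72 and 4.62 in oocyte-free and 6.74, 6.95 and 6.77 in intact complexes. The oocyte-free arrays were the lowest of each set, 5 of the 6 lay inside the Y-linked range, and coculture replicate 3 without estrogen was the highest array of all. Ccne2 was called lower on removal with estrogen (-1.41 ± 0.28, adjusted p = 0.000876) and without (-2.11 ± 0.28, adjusted p = 1.33e-05). It was called higher on adding oocytes with estrogen (adjusted p = 0.00775) and without (2.14 ± 0.28, adjusted p = 1.47e-05). With 5 of the 6 oocyte-free arrays inside the Y-linked range, these differences may understate the change. Ccne2 also entered the tests through the groups in which it is high. The call with estrogen was lost (adjusted p = 0.0519) when the array with conflicting labels was placed with the oocyte-free arrays without estrogen.

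Cdkn1a, the gene of the inhibitor p21, ran the other way. With estrogen, Cdkn1a read 10.60, 10.25 and 10.40 in cocultures, 11.80, 11.57 and 11.79 in oocyte-free and 10.27, 9.57 and 10.18 in intact complexes. Without estrogen, Cdkn1a read 10.36, 10.14 and 9.95 in cocultures, 11.83, 11.87 and 11.53 in oocyte-free and 10.02, 10.11 and 9.74 in intact complexes. All 6 oocyte-free arrays lay above all 12 arrays with oocytes. Removal raised Cdkn1a 3.28-fold with estrogen (1.71 ± 0.19, adjusted p = 1.59e-06) and 3.45-fold without (1.79 ± 0.19, adjusted p = 7.61e-07). Adding oocytes lowered it by a log2 difference of -1.30 ± 0.19 with estrogen (adjusted p = 4.49e-05) and -1.59 ± 0.19 without (adjusted p = 3.89e-06). The second probe set, 1421679_a_at, was called in the same 4 comparisons, with removal differences of 1.55 with estrogen and 2.01 without.

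Cdkn1b, the gene of the inhibitor p27, was not called in any of the comparisons by its representative probe set. With estrogen it read 6.92, 6.97 and 6.47 in cocultures, 7.19, 7.72 and 6.86 in oocyte-free and 6.88, 6.91 and 6.79 in intact complexes. Without estrogen it read 6.64, 6.96 and 6.79 in cocultures, 6.69, 7.07 and 6.17 in oocyte-free and 6.95, 6.55 and 6.54 in intact complexes. The oocyte-free arrays spread the most and overlapped the intact and coculture arrays both with estrogen and without it. The removal difference was 0.40 with estrogen (95% interval -0.090 to 0.88) and -0.037 without (-0.52 to 0.45). Among the arrays of series 1 alone, which hold 2 of the 3 oocyte-free arrays with estrogen, removal was called higher (0.595, adjusted p = 0.0303) and adding oocytes lower (-0.67, adjusted p = 0.0204). Those 2 arrays include the one with conflicting labels. Array weights, with all arrays kept, also called Cdkn1b lower on adding oocytes with estrogen (limma adjusted p = 0.0110). The second Cdkn1b probe set, 1419497_at, was instead called lower on removal without estrogen (-1.29 ± 0.45, adjusted p = 0.0344), and it correlated with the first at r = 0.207.

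Of the INK4 inhibitor genes, Cdkn2c (p18) fell on removal with estrogen and rose on adding oocytes. In culture with estrogen, Cdkn2c read 8.91, 9.16 and 8.97 in cocultures, 8.36, 7.49 and 8.43 in oocyte-free and 9.21, 8.91 and 9.62 in intact complexes. In culture without estrogen, Cdkn2c read 9.35, 9.13 and 9.44 in cocultures, 8.75, 8.46 and 8.46 in oocyte-free and 9.26, 9.37 and 8.78 in intact complexes. The oocyte-free arrays lay below the others, with oocyte-free replicate 1 at 8.75 next to intact replicate 3 at 8.78 without estrogen. Removal lowered Cdkn2c 2.22-fold with estrogen (-1.15 ± 0.23, adjusted p = 0.00105). Without estrogen the difference was -0.58 ± 0.23 and missed the threshold (adjusted p = 0.0588, 95% interval -1.07 to -0.087), while 7 of 31 alternative settings called it. Adding oocytes raised it 1.89-fold with estrogen (0.92 ± 0.23, adjusted p = 0.00752) and 1.68-fold without (0.75 ± 0.23, adjusted p = 0.0196). The call without estrogen was lost on leaving out coculture replicate 1, coculture replicate 3 or oocyte-free replicate 2, with an adjusted p of up to 0.0713.

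Cdkn2b (p15) read between 4.80 and 5.71 over all 18 arrays, inside the Y-linked range. It read 5.28, 4.99 and 5.40 in oocyte-free and 4.86, 5.00 and 4.81 in intact complexes with estrogen. Without estrogen it read 5.33, 5.34 and 5.71 in oocyte-free and 4.83, 5.06 and 5.20 in intact complexes. In a fit with no filter on low values its removal difference was 0.33 with estrogen (adjusted p = 0.103) and 0.43 without (adjusted p = 0.0269). At these levels such a difference cannot be separated from background on the array.

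**Figure D3:**
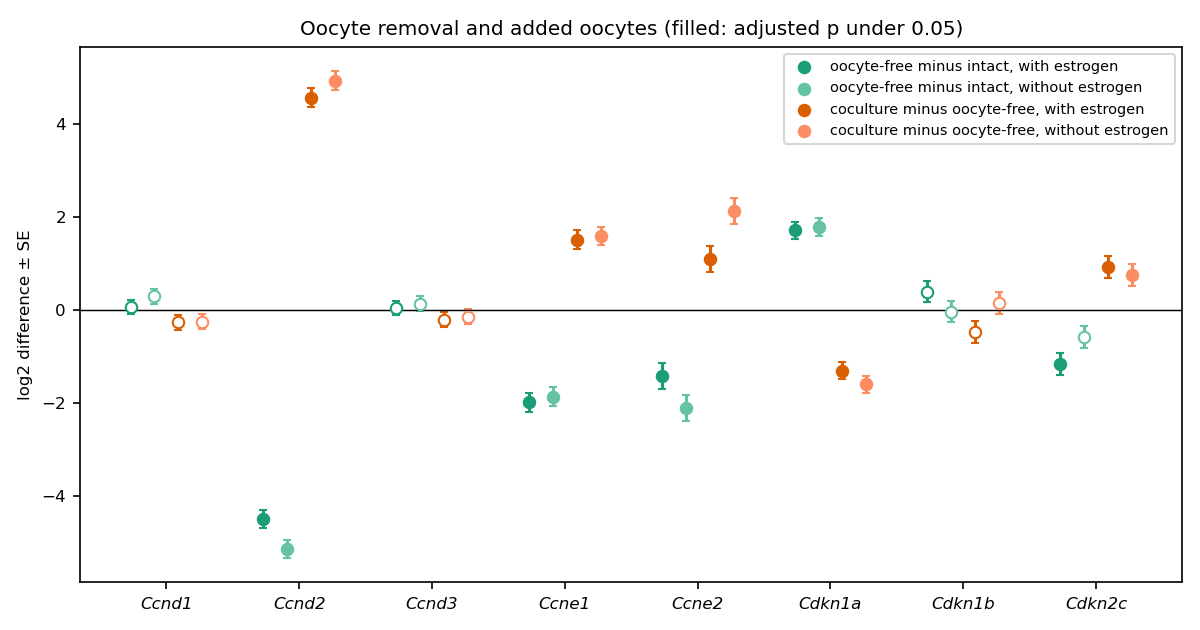
Log2 difference (y, ± SE) of the 8 tested genes for oocyte removal (oocyte-free minus intact) and added oocytes (coculture minus oocyte-free), with and without estrogen; filled points were called. Ccnd2, Ccne1, Ccne2 and Cdkn2c are negative on removal and positive on adding oocytes, and Cdkn1a is the reverse; both comparisons share the oocyte-free arrays.

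The array series were unevenly spread, so the differences were also taken with series as a term in the model. On removal with estrogen, the values were then -4.31 for Ccnd2, -2.08 for Ccne1, -1.39 for Ccne2, 1.66 for Cdkn1a and -1.25 for Cdkn2c, and all stayed called. Within series 1 alone they were -4.24 for Ccnd2, -2.18 for Ccne1, -1.50 for Ccne2, 1.68 for Cdkn1a and -1.32 for Cdkn2c. The oocyte-free arrays with estrogen in series 1 include the array with conflicting labels. Without estrogen no series holds both oocyte-free and intact arrays, so no within-series value exists. With series as a term, those differences were -4.59 for Ccnd2, -2.17 for Ccne1, -1.88 for Ccne2 and 1.70 for Cdkn1a, all called, and -0.76 for Cdkn2c (adjusted p = 0.113).

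Cocultures were also set against intact complexes. Of the 8 genes, 0 were called with estrogen and 0 without, where 0% and 0.00817% of all tested genes were called. At an unadjusted p under 0.05, limma passed 345 of the 12246 tested genes with estrogen and 732 without, among them 2 and 0 of the 8. The 345 are fewer than this threshold would pass on average if no gene differed. The 2 genes are therefore described and not read as differences. The first of these was Ccne1 with estrogen, at 8.64, 8.62 and 8.53 in cocultures and 9.05, 8.92 and 9.23 in intact complexes, with no overlap. Its difference was -0.47 (95% interval -0.88 to -0.056, unadjusted p = 0.0284, adjusted p = 1). The other was Cdkn1a with estrogen, which overlapped by a narrow margin and differed by 0.41 (95% interval 0.020 to 0.80, unadjusted p = 0.0405, adjusted p = 1).

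For Ccnd2 the coculture difference from intact complexes was 0.073 with estrogen (95% interval -0.34 to 0.49) and -0.20 without (-0.62 to 0.22). For Ccne2 it was -0.31 with estrogen (-0.90 to 0.28) and 0.027 without (-0.56 to 0.62). For Cdkn2c it was -0.23 with estrogen (-0.73 to 0.26) and 0.17 without (-0.32 to 0.66). These intervals leave room for differences of that size, so equal levels are not shown.

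Estrogen was then compared within each culture type. In intact complexes 0 of the 8 genes were called (5.78% of all tested genes were), and in cocultures 0 were (4.65%). At an unadjusted p under 0.05, limma passed 2296 of the 12246 tested genes in intact complexes and 1968 in cocultures, among them 0 and 1 of the 8. That gene was Ccnd3 in cocultures, at 6.41, 6.38 and 6.35 with estrogen and 6.64, 7.10 and 6.53 without (difference -0.38, 95% interval -0.71 to -0.047, adjusted p = 0.232). Ccnd2 differed by 0.28 in cocultures (-0.14 to 0.70) and by 0.0067 in intact complexes (-0.41 to 0.42).

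In oocyte-free complexes 2 of the 8 genes were called, Ccnd2 and Ccne2, both higher with estrogen, where 9.64% of all tested genes were called and 6.03% were called higher. Ccne2 read 5.45, 5.70 and 5.83 with estrogen and 4.79, 4.72 and 4.62 without, with no overlap, and was called higher (0.95 ± 0.28, adjusted p = 0.0398). As 5 of these 6 arrays lie inside the Y-linked range, this difference cannot be separated from background on the array and its size is not interpreted. Ccnd2 read 8.26, 7.87 and 7.28 with estrogen and 7.29, 7.13 and 7.05 without, with a narrow overlap, and rose 1.57-fold (0.65 ± 0.20, adjusted p = 0.0479). Both calls were also fragile, since 26 of 31 alternative settings lost the call for Ccnd2 and 14 of 31 lost that for Ccne2. Over the alternatives the adjusted p ranged from 0.00262 to 0.931 for Ccnd2 and from 0.00494 to 0.551 for Ccne2. The Ccnd2 array at 8.26 is the one with conflicting labels, and without it the difference was 0.42 (adjusted p = 0.256). Placed with the arrays without estrogen, it left 0.14 for Ccnd2 and 0.87 for Ccne2, neither called. With array series as a term the differences were 0.29 for Ccnd2 (adjusted p = 0.443) and 0.75 for Ccne2 (adjusted p = 0.219).

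The Ccnd2 probe sets split over estrogen in oocyte-free complexes. Tested one by one, 1430127_a_at was called higher (0.93 ± 0.18, adjusted p = 0.00369), where 7.89% of probe sets were called, and the other 6 were not called, with differences from -0.33 to 0.65. Cdkn1a split as well, with -0.023 ± 0.19 for 1424638_at and a called -0.71 ± 0.20 for 1421679_a_at (adjusted p = 0.0378). Probe set 1421679_a_at read 10.91, 10.54 and 10.92 with estrogen and 11.55, 11.71 and 11.23 without, and did not overlap. Cdkn1b read 7.19, 7.72 and 6.86 with estrogen and 6.69, 7.07 and 6.17 without in oocyte-free complexes, a difference of 0.61 ± 0.23 (adjusted p = 0.104) that was not called. It was called higher on leaving out oocyte-free replicate 2 without estrogen or replicate 3 with estrogen, with a limma adjusted p down to 0.0340.

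**Figure D4:**
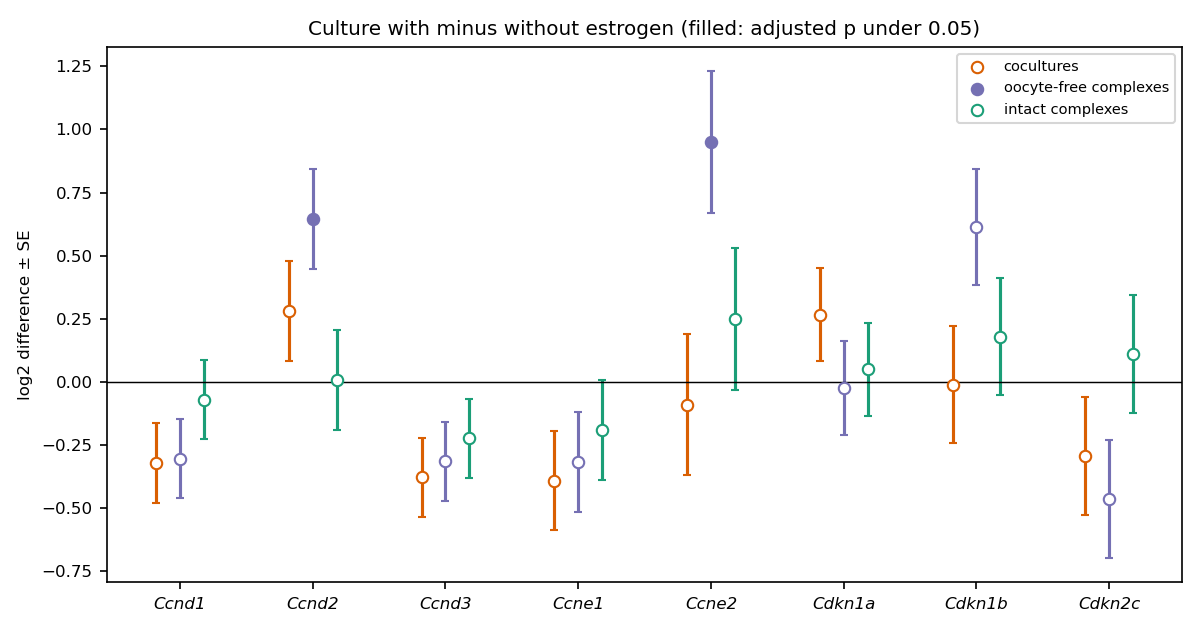
Log2 difference (y, ± SE) between culture with and without estrogen for the 8 tested genes in cocultures, oocyte-free and intact complexes; filled points were called. The only filled points are Ccnd2 at 0.65 and Ccne2 at 0.95 in oocyte-free complexes.

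Whether the oocyte changed the estrogen effect was tested with interaction terms. None of the 8 genes was called for oocyte removal (3.21% of all tested genes were) or for added oocytes (2.78%). At an unadjusted p under 0.05 limma passed 1743 and 1625 of the 12246 tested genes, with 1 of the 8 each. For removal that gene was Ccnd2, whose loss was smaller with estrogen by 0.64 (95% interval 0.049 to 1.23, adjusted p = 0.294). Over the alternative settings this value ranged from 0.14 to 0.90. The estrogen difference of Ccnd2 was 0.65 in oocyte-free and 0.0067 in intact complexes, and the array with conflicting labels was its highest oocyte-free array (8.26). The Ccnd2 probe sets differed here. Probe set 1430127_a_at was called for this interaction (1.04 ± 0.25, adjusted p = 0.0320), where 2.54% of probe sets were. The others were not, with 1434745_at at -0.34 and 1448229_s_at at -0.20. For added oocytes the gene was Ccne2, whose gain was smaller with estrogen by a log2 difference of -1.04 (-1.87 to -0.21, adjusted p = 0.224). The estrogen difference of Ccne2 was -0.09 in cocultures and 0.95 in oocyte-free complexes, where it could not be separated from background. The size of this interaction is therefore not interpreted.

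Other genes of the same step were taken from lists and are described by their counts. Of 10 tested G1 kinases and other CDK inhibitors, 1 rose and 3 fell on removal with estrogen, and 1 rose and 5 fell without. The shares over all tested genes were 12.9% higher and 17.3% lower with estrogen, and 18% higher and 20.7% lower without, and the counts of all lists below are to be read against them. The gene that rose was Cdkn1c, which encodes the third CIP/KIP inhibitor p57, by 2.74 ± 0.19 with estrogen and 2.85 ± 0.19 without. Adding oocytes changed Cdkn1c by -2.75 with estrogen and -3.01 without, both called. Its level in the groups with oocytes averaged 5.51 to 5.67, inside the upper part of the Y-linked range, so these differences may be understated. Cdk6, a partner of the D cyclins, changed on removal by -0.53 with estrogen and -0.76 without, both called. The other partner genes were not called, with -0.20 for Cdk4 and 0.040 for Cdk2 with estrogen, and -0.21 for Cdk4 and 0.29 for Cdk2 without.

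Of 14 pocket protein and E2F genes, 1 rose and 6 fell on removal with estrogen (median -0.42), and 1 rose and 9 fell without (median -0.66). E2f7, a repressor E2F, changed by -1.94 with estrogen and -2.69 without, and Rbl1, the pocket protein p107, by -1.31 with estrogen and -1.90 without. Both averaged 5.49 to 5.50 in oocyte-free complexes without estrogen, inside the upper part of the Y-linked range, so those differences may be understated. The activator gene E2f1 changed by -0.80 with estrogen and -0.63 without. Rb1, the retinoblastoma gene, was not called with estrogen (-0.30) and changed by -0.97 without. Tfdp2, an E2F partner, was the 1 that rose, by 0.97 with estrogen and 1.04 without.

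All 18 tested E2F target genes of S phase entry fell on removal with estrogen (median -1.56) and without (median -1.94). Tk1, the thymidine kinase, changed by -3.98 with estrogen and -3.75 without, and the replication licensing gene Cdc6 by -2.42 with estrogen and -3.21 without. In oocyte-free complexes Tk1 averaged 4.37 with estrogen and 5.02 without, and Cdc6 5.57 with estrogen and 4.70 without. All of these lay inside the Y-linked range, so the differences of Tk1 and Cdc6 may be understated. Adding oocytes raised 16 of the 18 with estrogen and 18 without. The list was drawn up with earlier results of these samples known, so its direction is no independent evidence.

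Of 16 tested p53 target genes, a group that shares its regulator with Cdkn1a, 11 rose and 0 fell on removal with estrogen (median 0.84), and 8 rose and 1 fell without (median 0.54). Over all tested genes 12.9% rose and 17.3% fell with estrogen (median -0.047), and 18% rose and 20.7% fell without (median 0.013). Plk2, a polo-like kinase, changed by 2.43 with estrogen and 1.81 without, and the RNA-binding protein gene Zmat3 by 1.23 with estrogen and 1.74 without. Mdm2, the p53 ubiquitin ligase, changed by 0.79 with estrogen and 0.77 without. Gadd45a was called in opposite directions, at 1.03 with estrogen and -1.06 without.

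Of 15 genes for the turnover of cyclins and CDK inhibitors, 0 rose and 3 fell on removal with estrogen, and 1 rose and 3 fell without. The counts of falls are near the shares over all tested genes, 17.3% with estrogen and 20.7% without, and say nothing particular of this list. Skp2, whose product targets p27 for degradation, changed by -0.86 with estrogen and -1.03 without, and Dtl, which directs the degradation of p21, by -1.55 with estrogen and -1.86 without.

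Of 21 transcription factor genes that act on D cyclins or CDK inhibitors, 9 rose and 2 fell on removal with estrogen, and 10 rose and 7 fell without. Over all tested genes 12.9% rose and 17.3% fell with estrogen, and 18% rose and 20.7% fell without. Klf6, which activates Cdkn1a, rose by 2.67 with estrogen and 1.68 without. Mycn, of the Myc family, changed by -1.02 with estrogen and -3.06 without, and Esr1, estrogen receptor alpha, by -1.52 with estrogen and -2.43 without. In oocyte-free complexes Mycn was 3.36 ± 0.30 higher with estrogen than without (adjusted p = 2.05e-06), the largest estrogen difference among the genes named here, and this was not called with the conflicting array placed among those without estrogen (2.48, adjusted p = 0.498). Foxo1, a forkhead factor, was 0.74 ± 0.13 higher with estrogen there (adjusted p = 0.00204).

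**Figure D5:**
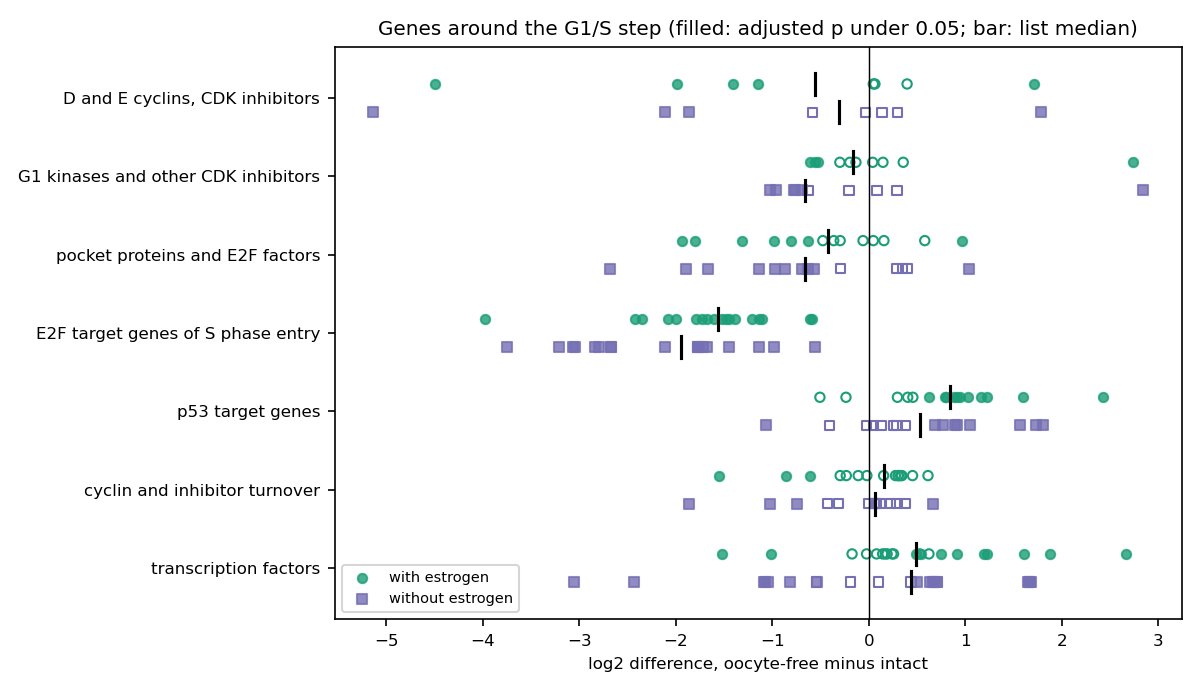
Log2 difference (x) between oocyte-free and intact complexes for the 8 tested genes and each tested gene of 6 lists (y), with estrogen (circles) and without (squares); filled symbols were called and bars are list medians. E2F target genes lie wholly below 0, and p53 target genes lie mostly above it.

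The genes whose levels ran most like those of each tested gene over the 18 arrays were found by Pearson correlation. The arrays share a large difference between oocyte-free and other groups, so high values are common and are given as a description. For Ccnd2 they were the steroid enzyme gene Hsd17b1 (r = 0.997), Dnajb13 (0.995) and Ppa1 (0.995). For Ccne1 they were Tk1 (0.985), Sardh (0.966) and Evc2 (0.962), and for Ccne2 Rbl1 (0.965), Anln (0.957) and Rad51ap1 (0.957). For Cdkn1a they were Klf9 (0.976), Arhgef2 (0.975) and Pdgfd (0.966), and for Cdkn2c Jam2 (0.912), Ahcy (0.899) and Ccne1 (0.892). Closest to Ccnd1 was Il17re (0.871), to Ccnd3 Otud7a (0.938) and to Cdkn1b 5430405H02Rik (0.817). Between the 8 genes themselves, Ccnd2 ran against Cdkn1a (r = -0.944, Spearman rank correlation -0.576), and Ccnd1 ran with Ccnd3 (r = 0.851, Spearman 0.795). The second value is of representative probe sets only. The other probe sets of Ccnd1 and Ccnd3 correlated with their gene's representative one at r = -0.346 to 0.288.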

How the data were processed

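RNA of mouse cumulus cells was measured on 18 arrays after repeated amplification of 20 ng total RNA, per the labels' protocols. The deposited log2 values come from RMA (background correction, quantile normalization, probe summary), run by the authors in Expression Console 1.1 of Affymetrix as the submitters' processing notes name it, and stand with 2 decimals in the deposited table. No genome build for the arrays is named in the sources used here. Probe sets with several symbols (932) or none (9160) were left out. Groups follow the sample titles.

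Differences were tested two-sided with limma 3.58.1 in R 4.3.3 (lmFit, eBayes), with 6 group means in 1 fit over 12246 genes and Benjamini-Hochberg adjustment over all of them, called under 0.05. The SE and 95% intervals rest on the spread shared by all groups. The fit was tested on simulated data. The number of arrays limits the precision.

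Named genes were the 9 genes, the 3 most correlated genes of each, and from each list the called genes with the largest changes plus a few named partners. The genes and lists were chosen with earlier results of these data known. Alternatives covered filters, probe set choice, scaling, weights, array series, the replicate block, the conflicting label and leaving out each array.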

Additional observations from a re-analysis of the deposited data

How the results depend on the processing

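The counts of called genes on oocyte removal and on adding oocytes kept within 1.5 times of the values given under all alternatives run, and Ccnd2, Ccne1 and Cdkn1a stayed called in those 4 comparisons. Leaving out each array in turn gave 5 called genes on removal with estrogen and 4 to 5 without, and 5 on adding oocytes with estrogen and 4 to 5 without. Over all results for the 8 genes, 2711 alternatives kept the side of the threshold, 44 lost a call, 21 gained one and 0 reversed a call.

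The estrogen effect in oocyte-free complexes, with 2 genes called, depended most on the settings. It left 0 genes with no filter on low values, a further quantile normalization, array series as a term, array series as a random block, and the conflicting array placed with the arrays without estrogen. It left 1 with the mean of a gene's probe sets, arrays centred on their medians, the compared groups alone, and array weights. It also left 1 with every probe set tested on its own, where only each gene's representative probe set was counted. Among the probe sets not counted there, 1430127_a_at of Ccnd2 was called higher and 1421679_a_at of Cdkn1a lower. Leaving out each array gave 0 to 2. These counts include Cdkn1b where oocyte-free replicate 2 without estrogen or oocyte-free replicate 3 with estrogen was left out. The 0 came without oocyte-free replicates 1 or 2 with estrogen, oocyte-free replicates 1 or 3 without estrogen, coculture replicate 3 with estrogen, or intact replicate 3 without estrogen. Array weights called 1 gene for estrogen in cocultures (Ccne1), 1 for the removal interaction (Ccnd2) and 1 for the added-oocyte interaction (Ccne2). Leaving out each array gave 0 to 1 for the removal interaction, with the 1 found without oocyte-free replicate 3 with estrogen. Some of these fits had fewer arrays and others kept all of them, and the cause of the changed counts was not tested.

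The title numbers fall into 3 sets, used as replicate numbers. A check of deviations from the group mean showed no pairing by set number, and it cannot exclude one. Of 45 pairs of arrays with the same set number, 14 had deviations correlated over 0.1, as did 31 of 90 pairs with other numbers. With the replicate block, 1 gene was called for estrogen in oocyte-free complexes, and the other counts were the same as without the block.

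Low signal limits Cdkn2b, Ccne2 without oocytes (its estrogen call included), Cdkn1c with oocytes, Tk1 and Cdc6 without oocytes, and the dimmer Ccnd2 probe sets. Their levels there lay inside the Y-linked range or near it. With 3 arrays per group and RMA scaling, a shift shared by most transcripts would not be seen, and protein levels or kinase activity were not measured.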
